A study of Mus musculus with 24 samples.

Results

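The comparison described here is that of a BTK inhibitor (BTKi) with vehicle in naive mice, animals that were not given cuprizone. Its members were taken by their labels: 4 libraries labelled naive BTKi against 4 labelled naive vehicle, 8 of the 24 libraries in the series. Polyadenylated RNA from the corpus callosum, the main white matter tract between the cerebral hemispheres, was sequenced in bulk. The other 16 libraries came from mice given cuprizone, a copper chelator used to strip myelin, with 8 labelled vehicle and 8 labelled BTKi. They enter here only to share the estimate of spread and to test where the drug's effect differed. No source used here gives the inhibitor's identity, its dose and duration, the vehicle, or the animals' strain, sex and age. The labels number the libraries of a group but do not say that each is a separate animal, so every p-value measures only the spread among these libraries, part of which may be technical.

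Bruton's tyrosine kinase (BTK) relays signals from the B cell receptor and from Fc receptors, through phospholipase C gamma, calcium and protein kinase C, to NF-kappaB and ERK. In healthy brain it is known mainly from microglia, and B cells are scarce there. Many of the genes described below belong to another class, the immediate early and rapidly responding genes, whose transcripts are short-lived and follow calcium, cAMP and ERK signalling in neurons and glia. Period genes stand in that class and also in the core feedback loop of the circadian clock.

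Of 15216 genes tested, 33 passed an adjusted p of 0.05 (0.217% of those tested): 16 were higher under BTKi (0.105%) and 17 lower (0.112%). Levels are in FPKM, the fragments on a gene scaled by its length and by the size of the library, and changes are limma's log2 differences of FPKM + 0.5, BTKi minus vehicle, which understate the change of low genes. The 33 changes were small. Their sizes ran from 0.28 to 1.15 on the log2 scale with a median of 0.41, and only Btg2 changed by more than 2-fold on that scale. In mean FPKM, without the added 0.5, the low genes Hist1h1e and Cfap44 also passed 2-fold, at -50.5% and -50.2%. Mean levels were 23.9% to 59.7% higher for the rises and 22.4% to 57.3% lower for the falls. In 32 of the 33 genes the 4 BTKi libraries did not overlap the 4 vehicle libraries, against 1120 of all genes tested (7.36%), and Nuak1 was the exception. At an unadjusted p of 0.05 there were 1922 genes (12.6%), with 704 higher (4.63%) and 1218 lower (8%). The median change over all genes was -0.02, with 6669 changes above 0 (43.8%) and 8547 below 0. The split of the called genes moved with the scaling: median ratio scaling gave 23 higher and 16 lower, and quantile normalization 22 higher and 7 lower.

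**Figure D1:**
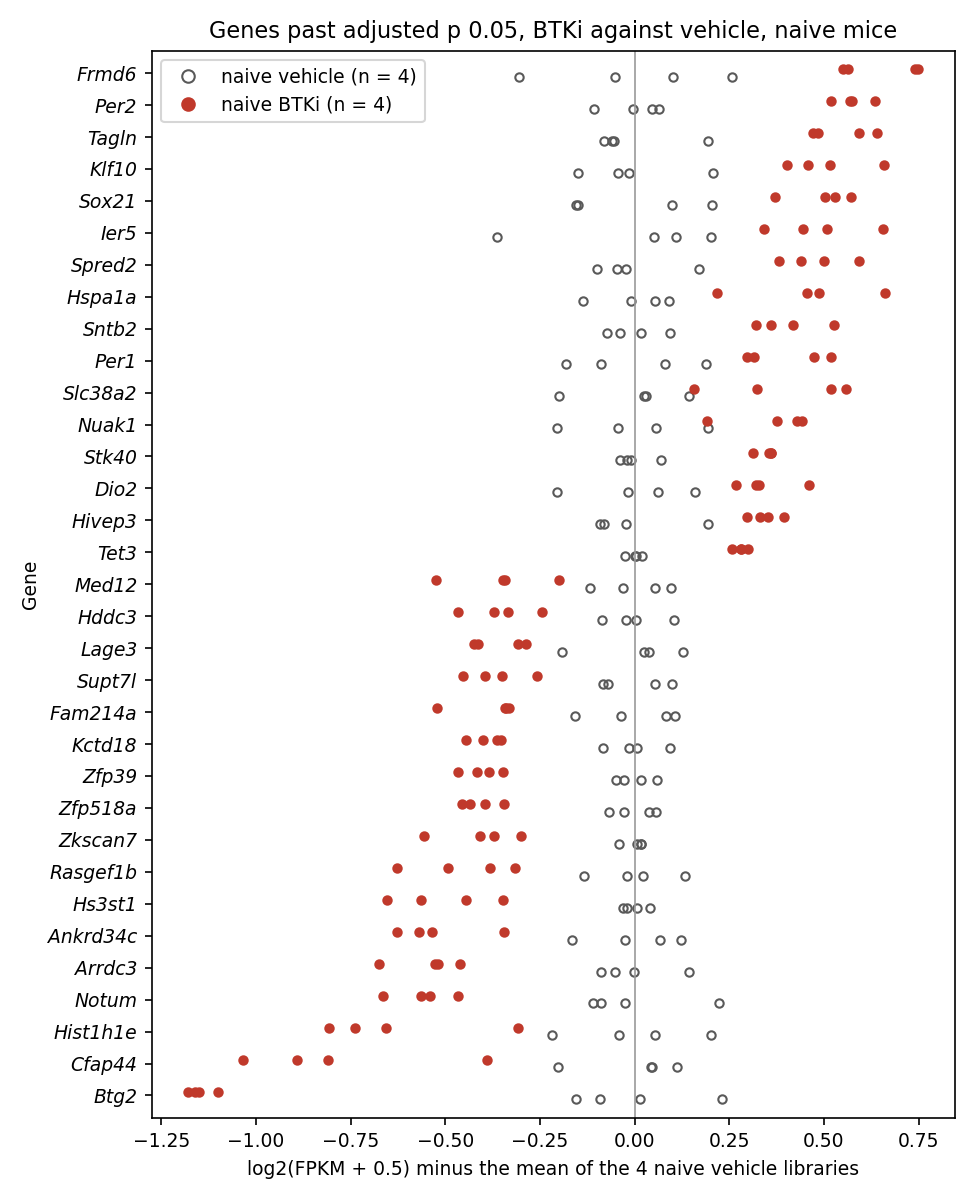
Each row is 1 of the 33 genes past adjusted p 0.05, and each point 1 library (open, 4 naive vehicle; filled, 4 naive BTKi) as log2(FPKM + 0.5) minus the mean of the vehicle libraries. The BTKi points lie apart from the vehicle points in every gene but Nuak1, and those of Btg2 lie farthest from them.

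The calls rested on individual libraries. Leaving out 1 naive library at a time gave 28, 11, 22 and 22 calls without vehicle 1, 2, 3 and 4, and 21, 23, 8 and 7 without BTKi 1, 2, 3 and 4. Of the 33 genes, 16, 8, 18 and 19 were called in the first 4 of these fits and 18, 18, 8 and 7 in the others. Btg2, Frmd6, Hs3st1, Per2, Sntb2, Spred2 and Stk40 were called in all 8 fits, and all 33 kept their direction in all 8. Rasgef1b was lost only without BTKi 4. Tet3, Zfp39, Zkscan7 and Notum were called in none of the 8 fits, and Per1 only in those without vehicle 3 or BTKi 1. A fit on the 8 naive libraries alone, with its own estimate of spread, called 3 genes, Btg2, Per2 and Arrdc3.

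Libraries were alike in depth. The steps between low FPKM values implied 29565000 to 30087000 fragments per naive library, 96.3% to 98.0% of the deepest library in the series. Genes at 0.5 FPKM or above numbered 14994 ± 62.4 (SD, n = 4) under BTKi and 15150 ± 82.5 (SD, n = 4) under vehicle (exact permutation test, two-sided p = 0.0571, adjusted p = 0.229 over 4 library measures; the smallest p that 4 against 4 allows is 0.0286). The labelled tissue was checked against markers. The 22 myelin and mature oligodendrocyte genes summed to 3419 to 5539 FPKM, and 14 general neuron genes to 2991 to 3473 FPKM, so the samples held neuronal RNA too. Naive vehicle 2 stood apart. Its striatal and thalamic neuron markers were high and its cortical markers low, with values given further on. Naive BTKi 1 had the highest share of FPKM from mitochondrially encoded genes, 14.7%, against 11.4% to 12.7% in the other naive libraries.

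Btg2 had the largest fall among the called genes. It encodes an antiproliferative cofactor of the CCR4-NOT deadenylase and is induced by growth factors, neuronal activity and p53. Its level was 11.0, 12.5, 14.6 and 11.6 FPKM in vehicle 1 to 4 and 5.18, 5.28, 5.25 and 5.49 FPKM in BTKi 1 to 4. Every treated library lay below every control, and the treated libraries differed little among themselves. The log2 change was -1.15 ± 0.09 (SE), a mean 57.3% lower (limma, adjusted p = 1.09e-07).

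The stretch of 250 bases before the Btg2 start is shown because it holds an intact cAMP response element, the palindrome through which cAMP and calcium signals act on many immediate early genes. It lies at chr1:134079156-134079405 on the minus strand, in the RefSeq promoter table of build GRCm38.p6, and the capitals mark the element TGACGTCA, 166 to 159 bases before the start.
Btg2: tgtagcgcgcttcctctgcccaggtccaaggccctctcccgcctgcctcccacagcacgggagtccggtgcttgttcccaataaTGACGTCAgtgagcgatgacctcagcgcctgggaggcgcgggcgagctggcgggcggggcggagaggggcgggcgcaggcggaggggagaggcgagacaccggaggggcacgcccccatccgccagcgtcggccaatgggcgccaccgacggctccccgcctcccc
The element, which reads the same on both strands, is in 508 of 32851 promoters of this length (1.55%), a count that did not cover every chromosome. Among the genes called here it is also in that of Dio2, which rose.

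Frmd6 had the largest rise among the called genes. Its product is a FERM-domain protein that acts upstream of the Hippo pathway kinases. It stood at 6.90, 5.71, 8.66 and 7.72 FPKM in vehicle 1 to 4 and at 10.8, 12.3, 10.7 and 12.4 FPKM in BTKi 1 to 4. The groups did not overlap, and the lowest value was in vehicle 2. The change was 0.65 ± 0.09 (SE), a mean 59.7% higher (limma, adjusted p = 0.00158).

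Genes of the circadian clock were led by Per2 and Per1, repressors that close the clock's feedback loop and that are also induced rapidly by cAMP, and Per1 by glucocorticoids. Per2 was at 6.18, 5.73, 6.42 and 6.51 FPKM in vehicle 1 to 4 and at 9.90, 9.11, 9.47 and 9.44 FPKM in BTKi 1 to 4, a change of 0.57 ± 0.09 (SE; limma, adjusted p = 0.00317). Per1 was at 24.9, 29.9, 32.3 and 26.5 FPKM under vehicle and 35.3, 39.4, 34.8 and 40.6 FPKM under BTKi, a change of 0.40 ± 0.08 (SE; limma, adjusted p = 0.0332). Neither gene's groups overlapped, and the margin was narrow for Per1, where vehicle 3 came closest to BTKi 3. Of the 17 clock genes, all tested, 2 rose and none fell (0.105% and 0.112% of all genes tested), with a list median of 0.08 against -0.02 for all genes. Bhlhe40, a repressor of CLOCK and BMAL1, had a change of 0.34 that missed the threshold (limma, adjusted p = 0.176), and Cry2, the partner of the Period proteins, one of 0.12 (limma, adjusted p = 0.303). In 4 clock genes (Per1, Per2, Bhlhe40 and Cry2) the groups did not overlap with BTKi higher, against 2.43% of all genes tested. No source used here gives the hour at which tissue was taken.

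A promoter each of Per1 and Frmd6 is shown because both hold the canonical E-box, the site that CLOCK and BMAL1 bind. They are from the same table and build: Per1 at chr11:69098699-69098948 on the plus strand and Frmd6 at chr12:70825264-70825513 on the plus strand, with the E-box CACGTG in capitals, 166 to 161 and 216 to 211 bases before the start. The Per1 stretch lies inside the gene as annotated in GENCODE M21 (chr11:69095217-69109960), so its start is an internal one. Only entries that hold a marked element were printed.
Per1: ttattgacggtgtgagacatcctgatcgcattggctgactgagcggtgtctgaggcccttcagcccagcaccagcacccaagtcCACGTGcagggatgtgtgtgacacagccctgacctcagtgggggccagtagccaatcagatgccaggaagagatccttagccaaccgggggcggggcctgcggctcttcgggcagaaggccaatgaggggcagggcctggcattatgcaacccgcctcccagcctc
Frmd6: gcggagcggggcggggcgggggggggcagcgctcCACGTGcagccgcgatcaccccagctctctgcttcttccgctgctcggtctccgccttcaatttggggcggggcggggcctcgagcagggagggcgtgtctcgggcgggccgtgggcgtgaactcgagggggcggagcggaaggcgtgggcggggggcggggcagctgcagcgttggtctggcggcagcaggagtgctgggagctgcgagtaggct
This E-box, also a palindrome, is in 1978 of the 32851 promoters (6.02%). Of the called genes, 12 of the 16 higher and 14 of the 17 lower had an entry, some with several starts, and the E-box was in 2 of 13 promoters of the former (Frmd6 and Per1) and in 3 of 19 of the latter, all of Fam214a.

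Spred2, a membrane inhibitor of Ras-to-Raf signalling, was at 21.2, 20.0, 20.8 and 24.3 FPKM in vehicle 1 to 4 and at 28.2, 30.7, 32.7 and 29.4 FPKM in BTKi 1 to 4. The groups did not overlap, and the change was 0.48 ± 0.08 (SE; limma, adjusted p = 0.00383). Rasgef1b, an exchange factor for Ras-family proteins induced in stimulated macrophages, fell from 16.8, 18.2, 20.3 and 18.8 FPKM to 13.0, 14.1, 14.8 and 11.8 FPKM (log2 change -0.45 ± 0.08, SE; limma, adjusted p = 0.0071). Of 12 feedback regulators of ERK, all tested, 1 rose (Spred2; 0.105% of all genes tested) and none fell. The list median was 0.22 (0.18 without vehicle 2), and 7 of the 12 were higher at an unadjusted p of 0.05, against 4.63% of all genes. Of the 12, 9 had changes above 0 and 3 below, among them Spry1 at -0.17 (limma, adjusted p = 0.405). Spred1, a close relative of Spred2, had a change of 0.32 (limma, adjusted p = 0.13), and the ERK phosphatases Dusp5 and Dusp6 had changes of 0.30 and 0.23 (adjusted p = 0.203 and 0.216).

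**Figure D2:**
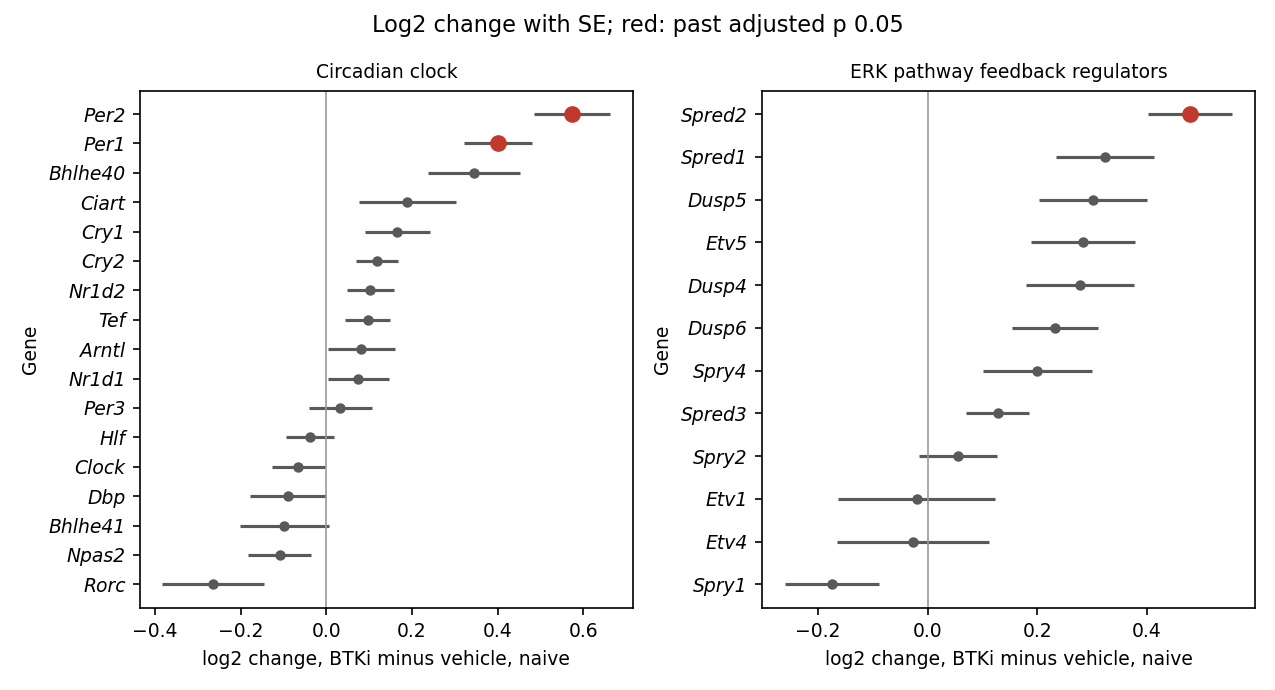
Points are log2 changes (BTKi minus vehicle, naive mice) with bars of 1 SE, for the 17 clock genes (left) and the 12 ERK feedback regulators (right). Red points passed adjusted p 0.05: Per2 at 0.57, Per1 at 0.40 and Spred2 at 0.48.

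Immediate early genes as a group did not move one way. Of the 26 in the list, all tested, 2 rose (Per1 and Ier5; 0.105% of all genes tested) and 1 fell (Btg2; 0.112%), and the list median was 0.02, with 13 changes above and 13 below 0. Ier5, a rapidly induced regulator of heat shock factor HSF1, was at 22.6, 16.8, 23.5 and 25.1 FPKM in vehicle 1 to 4 and at 27.7, 31.1, 34.6 and 29.8 FPKM in BTKi 1 to 4 (log2 change 0.49 ± 0.10, SE; limma, adjusted p = 0.0417). Its groups did not overlap, and vehicle 2 was the lowest library. Npas4, a neuron-specific factor induced by calcium entry, was at 16.3, 14.2, 15.1 and 10.7 FPKM under vehicle and 10.9, 7.28, 7.14 and 5.43 FPKM under BTKi. Its change of -0.85 ± 0.19 (SE) missed the threshold (limma, adjusted p = 0.0634), and BTKi 1 overlapped vehicle 4. Ier2, another rapid gene, had a change of -0.39 (limma, adjusted p = 0.146). The AP-1 member Fos, the nuclear receptor Nr4a1 and the synaptic gene Arc had changes of -0.11, -0.06 and 0.05 with overlapping groups. Egr1, a zinc-finger factor of the class, had a change of 0.23 (limma, adjusted p = 0.411). Of 15 delayed activity-response genes of neurons none passed, with a median of 0.00; Crem, a cAMP-responsive repressor, had a change of 0.51 (limma, adjusted p = 0.102).

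Klf10, a transforming growth factor beta inducible zinc-finger repressor, rose from 9.06, 8.37, 9.26 and 10.9 FPKM in vehicle 1 to 4 to 12.5, 13.6, 15.1 and 13.0 FPKM in BTKi 1 to 4 (log2 change 0.51 ± 0.11, SE; limma, adjusted p = 0.0417). Stk40, a pseudokinase related to the Tribbles proteins, rose from 11.0, 10.3, 10.2 and 10.4 FPKM to 13.2, 13.6, 13.6 and 13.6 FPKM (0.35 ± 0.05, SE; adjusted p = 0.00324). In both genes each treated library exceeded each control. Its relative Trib2 had a change of 0.40 that fell just short (limma, adjusted p = 0.0521), as did Tob1, of the same antiproliferative family as Btg2, with -0.38 (adjusted p = 0.0521).

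Several other chromatin and transcription factors were called. Tet3, which oxidises 5-methylcytosine, rose with little spread, from 4.24, 4.39, 4.33 and 4.33 FPKM to 5.27, 5.43, 5.36 and 5.36 FPKM (0.28 ± 0.06, SE; limma, adjusted p = 0.0332). Its call was lost in each of the 8 fits with 1 naive library left out (limma, adjusted p from 0.0571 to 0.111). Hivep3, a large zinc-finger factor, and Sox21, a neural SOXB2 factor, rose by 0.34 and 0.49 (adjusted p = 0.0111 and 0.0417). Among the falls were 3 zinc-finger genes, Zfp518a, Zfp39 and Zkscan7, with changes of -0.41, -0.40 and -0.41 (adjusted p = 0.0166, 0.0354 and 0.0382). The calls of Zfp39 and Zkscan7 were also lost in every fit with 1 naive library left out. Supt7l, a subunit of the STAGA acetyltransferase complex, and Med12, of the Mediator kinase module, fell by 0.36 and 0.35 on the log2 scale (adjusted p = 0.0412 and 0.0417). Hist1h1e, a linker histone whose main transcript is not polyadenylated, fell from 1.37, 1.18, 0.894 and 1.08 FPKM to 0.529, 0.809, 0.427 and 0.471 FPKM (-0.63 ± 0.12, SE; adjusted p = 0.0223).

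Hs3st1, a 3-O-sulfotransferase that modifies heparan sulfate, was at 18.5, 18.8, 19.3 and 18.4 FPKM in vehicle 1 to 4 and at 11.7, 14.6, 13.6 and 12.5 FPKM in BTKi 1 to 4. No treated library reached the controls, and the change was -0.50 ± 0.07 (SE; limma, adjusted p = 0.00158). Arrdc3, an alpha-arrestin that directs the trafficking of beta-adrenergic receptors, fell from 13.2, 15.2, 12.9 and 13.7 FPKM to 8.39, 9.82, 9.35 and 9.40 FPKM (-0.55 ± 0.10, SE; adjusted p = 0.0166). Notum, a secreted carboxylesterase that inactivates Wnt proteins, fell from 2.31, 1.86, 1.73 and 1.76 FPKM to 1.02, 1.24, 1.15 and 1.13 FPKM (-0.56 ± 0.12, SE; adjusted p = 0.0417). Cfap44, a protein of the motile cilium axoneme, had the second largest change of the 33 called genes, -0.78 ± 0.17 (SE; adjusted p = 0.0417). Its levels were 2.48, 2.34, 1.90 and 2.35 FPKM under vehicle and 0.848, 1.61, 0.988 and 1.07 FPKM under BTKi, and BTKi 2 lay nearest the controls. BTKi 2 was also the treated library with the most ependymal RNA: the 9 tested ependymal markers, genes of ciliated cells, had changes below 0 in all 9, none called, and a median of -0.33 (-0.16 without vehicle 2). Their part in the Cfap44 result was not tested.

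Ankrd34c, an ankyrin-repeat protein, fell by 0.52 on the log2 scale (limma, adjusted p = 0.0412). The remaining falls were Kctd18, Fam214a, Lage3, a subunit of the KEOPS tRNA-modifying complex, and Hddc3, a phosphohydrolase related to bacterial SpoT enzymes. Their changes ran from -0.39 to -0.35 with adjusted p from 0.0166 to 0.0412.

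Sntb2, a syntrophin of the dystrophin complex, rose from 2.24, 2.30, 2.57 and 2.41 FPKM in vehicle 1 to 4 to 3.09, 3.64, 3.19 and 3.34 FPKM in BTKi 1 to 4 (0.41 ± 0.06, SE; limma, adjusted p = 0.00317). Tagln, an actin-binding protein of smooth muscle, rose from 3.10, 3.04, 3.79 and 3.11 FPKM to 5.15, 4.75, 4.70 and 5.34 FPKM (0.55 ± 0.11, SE; adjusted p = 0.0412). Neither gene's groups overlapped. Tagln was the only one of 10 mural cell markers that passed, against 0.105% of all genes tested called higher, and the median of that list was 0.06. Slc38a2, a sodium-coupled transporter of neutral amino acids, Nuak1, an AMPK-related kinase, and Dio2, the astrocytic enzyme that activates thyroid hormone, rose by 0.39, 0.36 and 0.35 (adjusted p = 0.0417, 0.0417 and 0.0352).

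Hspa1a, the inducible heat shock protein 70, was at 3.57, 3.23, 3.87 and 3.75 FPKM in vehicle 1 to 4 and at 4.27, 5.24, 5.12 and 5.98 FPKM in BTKi 1 to 4 (0.45 ± 0.10, SE; limma, adjusted p = 0.0417). It has a near-identical copy, Hspa1b, with which reads may be split, so the call is uncertain. Hspa1b had a change of 0.44 (adjusted p = 0.206), and its treated libraries also lay above its controls, BTKi 1 only just above vehicle 3. Of 15 heat shock and chaperone genes 13 had changes above 0, against 43.8% of all genes tested. Of the 15, 1 passed as higher, against 0.105% of all genes tested, and the median was 0.06. Dnajb1, a cochaperone induced with them, had a change of 0.23 (adjusted p = 0.163). Among 14 tested of 15 glucocorticoid-induced genes only Per1, also counted under the clock and the immediate early genes, passed. Of all genes tested 0.105% were called higher, and the median of this list was 0.12.

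The drug's target and its pathway showed no called change. Btk itself was near the limit of measurement, at 0.356, 0.351, 0.356 and 0.272 FPKM in vehicle 1 to 4 and 0.367, 0.295, 0.256 and 0.468 FPKM in BTKi 1 to 4. The groups overlapped, with a change of 0.02 ± 0.18 (SE; limma, adjusted p = 0.98), and Btk entered the test only because its mean over all 24 libraries passed the filter, through the cuprizone libraries. A kinase inhibitor acts on the protein, so the transcript is no measure of inhibition. Of 23 genes of the Btk cascade 19 were tested, none passed, and the median was 0.02. The largest change among them, -1.41 for Prkcd, a protein kinase C also abundant in thalamic neurons, came with 130.1 FPKM in vehicle 2 against 16.1 to 25.3 FPKM in the other controls and 7.39 to 15.7 FPKM under BTKi (adjusted p = 0.182). Of the 9 tested Fc receptor and ITAM adaptor genes and the 8 tested Tec and EGFR family kinases none passed either, with medians of -0.06 and -0.02.

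Microglial and inflammatory genes likewise gave no calls. The microglial purinergic receptor P2ry12 was at 20.5, 19.2, 21.7 and 17.7 FPKM in vehicle 1 to 4 and at 23.0, 18.9, 20.4 and 20.9 FPKM in BTKi 1 to 4 (change 0.07; limma, adjusted p = 0.782), and the CSF1 receptor gene Csf1r had a change of 0.08 (adjusted p = 0.872). Both sets of values overlapped. Over 16 homeostatic microglia genes the median was 0.01 and none had an unadjusted p under 0.05, against 12.6% of all genes. The same count of 0 held for the 20 disease-associated microglia genes (median -0.05), the 11 tested cytokines and chemokines (-0.05), the 9 tested complement genes (-0.06) and the 14 tested MHC presentation genes (-0.04). Of 20 interferon response genes 1 had an unadjusted p under 0.05, and of 12 NF-kappaB subunits and inhibitors 1, with medians of -0.03 and 0.02. These genes were measured in healthy tissue, where many are low, and a missed threshold does not show that they were unchanged.

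Myelin genes were lower under BTKi in level, but none passed the test. Of 22 myelin and mature oligodendrocyte genes all 22 had changes below 0, against 8547 of all 15216 genes tested, with a median of -0.32. In 15 of the 22 the treated libraries lay wholly below the controls, against 4.93% of all genes tested. Trf, the oligodendrocyte's transferrin gene, was at 211, 288, 191 and 198 FPKM in vehicle 1 to 4 and at 143, 156, 164 and 152 FPKM in BTKi 1 to 4 (change -0.51 ± 0.16, SE; limma, adjusted p = 0.189). The treated libraries lay below every control, and vehicle 2 was far above the other controls. Mbp, the myelin basic protein gene, had a change of -0.25 (adjusted p = 0.576). Summed over the list, levels were 3935 to 5539 FPKM under vehicle and 3419 to 3471 FPKM under BTKi. Without vehicle 2, 21 of the 22 changes were below 0 and the median was -0.20. Under BTKi in cuprizone mice the median of this list was 0.18, with none called. In bulk tissue, fewer oligodendrocytes and less of these transcripts per cell cannot be told apart. The libraries also differed in RNA of neighbouring tissue, as described below. Its part in the myelin values was not tested beyond the fits without vehicle 2.

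Most precursor genes lay on the same side. Of 11 oligodendrocyte precursor genes 10 had changes below 0, none passed and the median was -0.19 (-0.11 without vehicle 2). Sox10, a transcription factor of the whole lineage, was at 24.9, 35.7, 24.8 and 25.5 FPKM in vehicle 1 to 4 and at 21.6, 20.6, 20.3 and 19.0 FPKM in BTKi 1 to 4 (change -0.42; limma, adjusted p = 0.164). The groups did not overlap, with vehicle 2 again highest. Of the 9 tested newly formed oligodendrocyte genes 6 had changes below 0 and 3 above. None passed, and the median was -0.11 (-0.06 without vehicle 2). The largest fall in that list, -0.91 for Tcf7l2, came with 29.9 FPKM in vehicle 2 against 3.49 to 9.97 FPKM in the other controls.

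Markers of neighbouring grey matter and of the ventricle also differed between libraries, although none of the 10 striatal, 10 thalamic, 9 tested cortical and 10 choroid plexus genes passed. Striatal neuron markers had changes below 0 in all 10 genes, with a median of -0.47, and summed to 332, 725, 413 and 252 FPKM in vehicle 1 to 4 and 395, 279, 241 and 248 FPKM in BTKi 1 to 4. A list of 10 thalamic neuron genes, chosen after the values were seen, summed to 65.6, 344, 87.7 and 113 FPKM under vehicle and 50.1, 65.4, 64.1 and 66.4 FPKM under BTKi, with a median change of -0.86 that was -0.44 without vehicle 2. Vehicle 2 was the highest library for both lists, and the striatal median without it was -0.20. Cortical neuron markers were lowest in vehicle 2, at a sum of 146 FPKM against 224 to 258 FPKM in the other naive libraries, and their median change was 0.13 (0.01 without it).

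Choroid plexus RNA, from the secretory tissue of the ventricles, varied widely between libraries. Ttr, its transthyretin gene, was at 1114, 1768, 1347 and 1734 FPKM in vehicle 1 to 4 and at 1125, 2444, 452 and 677 FPKM in BTKi 1 to 4, so that the treated libraries spanned more than the controls. The 10 choroid plexus markers had a median change of -0.48, none with an unadjusted p under 0.05. General neuron, hippocampal neuron, astrocyte and endothelial lists, of 14, 10, 16 and 12 genes, had medians of -0.01, 0.03, 0.02 and 0.02, with none called, and between -0.03 and 0.08 without vehicle 2. Fibroblast and meningeal markers had changes above 0 in 9 of 10 genes with a median of 0.16, the 4 tested border macrophage genes a median of 0.24 (0.14 without vehicle 2), and the 4 tested red blood cell genes one of 0.26 (-0.03 without it), again with none called. Only 2 of 8 B cell genes were tested, with a median of -0.64 (-0.65 without vehicle 2), and neither passed. Igkc, the immunoglobulin kappa constant gene, was at 1.51, 1.43, 1.07 and 0.929 FPKM in vehicle 1 to 4 and at 0.0627, 0.867, 0.124 and 0.558 FPKM in BTKi 1 to 4, low but without overlap (change -1.02 ± 0.56, SE; limma, adjusted p = 0.456). Ighm, the immunoglobulin mu constant gene, had a change of -0.26 with overlapping groups (adjusted p = 0.268). Of 8 T and NK cell genes 2 were tested and none passed, with a median of -0.36 (-0.15 without vehicle 2). Of 7 neutrophil genes, none of which passed the filter, Camp was listed at 0 in all 8 libraries. The part of these tissues in the changes of the called genes was not tested beyond the fits without vehicle 2.

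**Figure D3:**
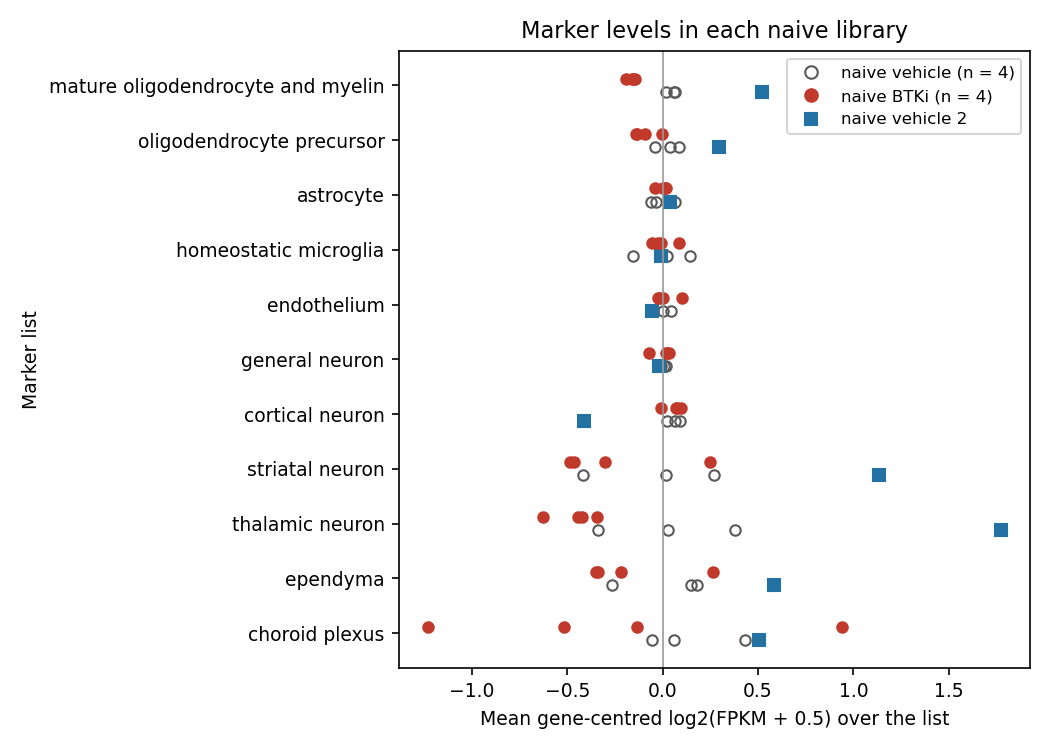
Each point is 1 naive library's mean of gene-centred log2(FPKM + 0.5) over a marker list (open, vehicle; filled circle, BTKi; square, vehicle 2). The square stands far to the right for thalamic neurons, at 1.77, and for striatal neurons, at 1.14, and to the left for cortical neurons, at -0.41.

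Metabolic and stress lists gave no calls either. Over 15 integrated stress response genes, 20 cholesterol biosynthesis genes, 13 cholesterol efflux and LXR targets, 7 tested proliferation genes, 11 tested xenobiotic and NRF2 response genes and 13 mitochondrially encoded genes, medians lay between -0.06 and 0.02.

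BTKi, under the same label, was also compared with vehicle in 8 and 8 cuprizone libraries, which share no library with the naive comparison but share the model's estimate of spread. There, 27 genes passed (0.177%), 6 higher (0.0394%) and 21 lower (0.138%; 8 and 13 after quantile normalization). Only Btg2 and Per1 were called in both settings, 6.06% of the naive calls and 7.41% of the cuprizone calls. The difference between the 2 effects, cuprizone minus naive, passed for 19 genes (0.125%), 18 of them with a difference below 0 (0.118%) and 1, Btg2, above 0 (0.00657%). Of these 19, 8 were naive calls: Frmd6, Per1, Stk40, Btg2, Klf10, Tet3, Hivep3 and Sntb2. In 15 of the 19 the change was above 0 in naive and below 0 in cuprizone mice. The difference contains the naive change with its sign reversed, so picking genes by it favours opposite signs and naive calls.

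Per1 was called in opposite directions. With 1 naive library left out, its naive call held only without vehicle 3 or without BTKi 1 (limma, adjusted p = 0.0160 and 0.0419). In cuprizone mice it ran from 35.1 to 40.5 FPKM under vehicle (median 39.6) and from 28.2 to 37.7 FPKM under BTKi (median 31.4), a change of -0.27 ± 0.06 (SE; limma, adjusted p = 0.0474) against 0.40 in naive mice. The cuprizone groups overlapped. The difference was -0.67 (limma, adjusted p = 0.00187). Frmd6 ran from 10.9 to 13.6 FPKM under vehicle (median 12.0) and from 8.39 to 10.9 FPKM under BTKi (median 9.97) in cuprizone mice. Those groups did not overlap, yet the change of -0.30 missed the threshold (adjusted p = 0.0586). Its difference from the naive change was -0.95, with the smallest adjusted p of the 19, 0.000155.

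Btg2 was lower under BTKi in both settings. In cuprizone mice it ran from 5.84 to 7.76 FPKM under vehicle (median 6.78) and from 4.21 to 5.49 FPKM under BTKi (median 5.05), without overlap. The change there was -0.43 ± 0.07 (SE; limma, adjusted p = 0.00154), smaller than in naive mice by 0.72 (adjusted p = 0.00543). The mean level under BTKi was 5.30 ± 0.137 FPKM (SD, n = 4) in naive and 4.91 ± 0.489 FPKM (SD, n = 8) in cuprizone mice, and the vehicle means were 12.4 ± 1.55 (SD, n = 4) and 6.80 ± 0.782 (SD, n = 8). Per2, Stk40 and Spred2 had cuprizone changes of 0.13, -0.10 and 0.03, none called, and the difference from naive passed for Stk40 (-0.44, adjusted p = 0.00254) but not for Per2 (adjusted p = 0.143) or Spred2 (adjusted p = 0.0568). Naive vehicle levels of all these genes also set any contrast of cuprizone with naive mice, so the order of the 4 group means is not independent of the naive drug effect.

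**Figure D4:**
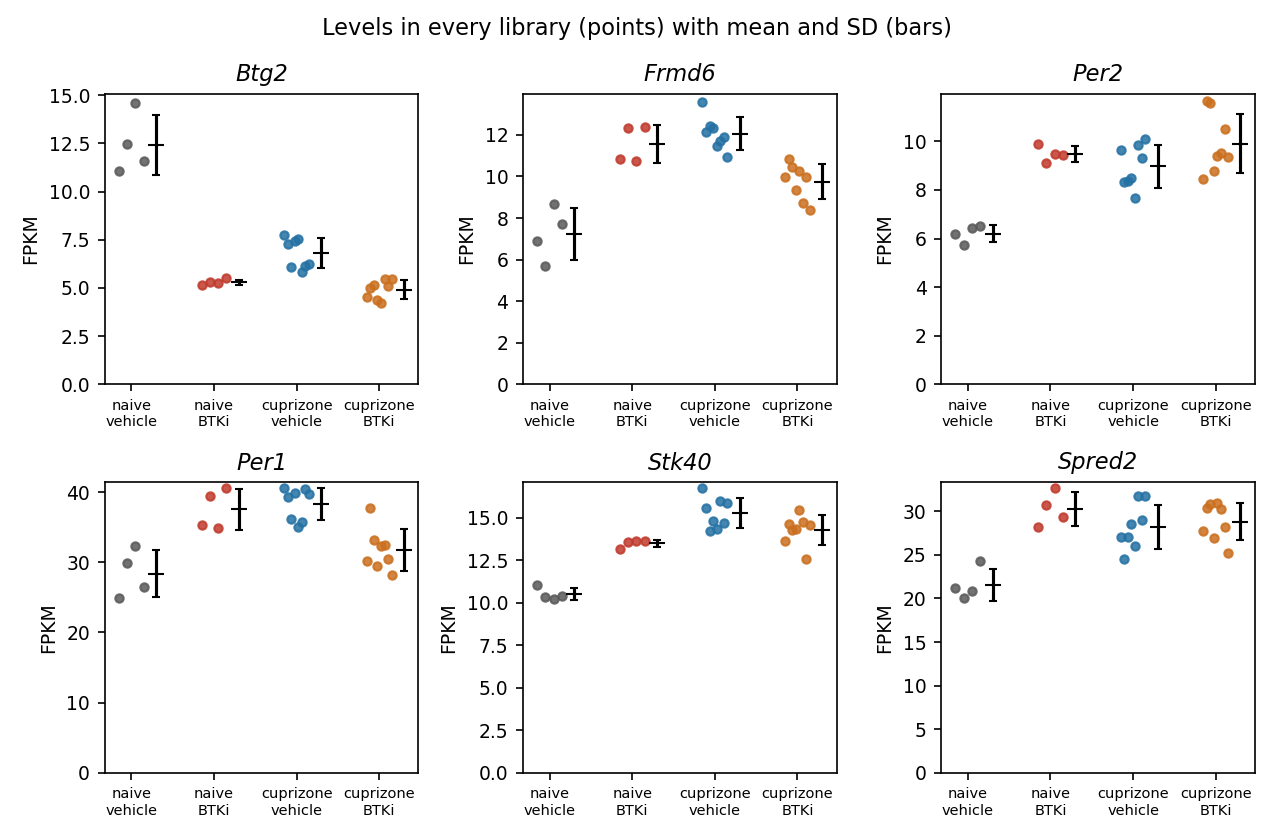
FPKM of Btg2, Frmd6, Per2, Per1, Stk40 and Spred2 in each of the 24 libraries (points, by group), with the group mean and bars of 1 SD. The 4 naive vehicle libraries are the highest for Btg2, at 11.0 to 14.6 FPKM, and for Frmd6 they run from 5.71 to 8.66 FPKM, below all other libraries but 1 of the cuprizone BTKi group, at 8.39 FPKM.

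Several genes called lower under BTKi in cuprizone mice had small changes in naive ones. Nr4a1 was at 66.4, 57.0, 68.1 and 53.4 FPKM in naive vehicle 1 to 4 and at 63.2, 56.0, 57.0 and 57.0 FPKM in naive BTKi 1 to 4, with overlap. Its naive change was -0.06 and its cuprizone change -0.96 (limma, difference adjusted p = 0.00187). Arc had changes of 0.05 and -0.98 (difference adjusted p = 0.0103), and the AP-1 member Junb -0.16 and -0.86 (difference adjusted p = 0.0305). The median of the 26 immediate early genes was 0.02 in naive and -0.23 in cuprizone mice, where 9 fell, against medians of -0.02 over all genes in both settings and 0.138% of all genes called lower in cuprizone mice. Dusp1, Fos and Ier2 were also called lower in cuprizone mice, and for these the difference from naive did not pass (adjusted p = 0.498, 0.344 and 0.41).

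Of the 33 naive calls, 19 had the same sign in cuprizone mice, 7 of the 16 rises and 12 of the 17 falls. Of all genes tested, 39.5% had cuprizone changes above 0. Of the 27 cuprizone calls, 16 had the same sign in naive mice. The share of all genes with the same sign in both settings was not counted. Of these 27, 8 had naive groups that did not overlap in either direction, against 7.36% of all genes. Nostrin, a regulator of endothelial nitric oxide synthase, had changes of 0.40 in naive (adjusted p = 0.0654) and 0.50 in cuprizone mice (adjusted p = 0.000193). The noncoding 1700016P03Rik, host transcript of miR-212 and miR-132, had changes of -0.74 (adjusted p = 0.118) and -0.92 (adjusted p = 0.00122). Zbtb16, a glucocorticoid-responsive zinc-finger factor, had changes of 0.31 (adjusted p = 0.137) and 0.41 (adjusted p = 0.00096). For these 3 genes the difference between settings did not pass (adjusted p = 0.806, 0.837 and 0.768).

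**Figure D5:**
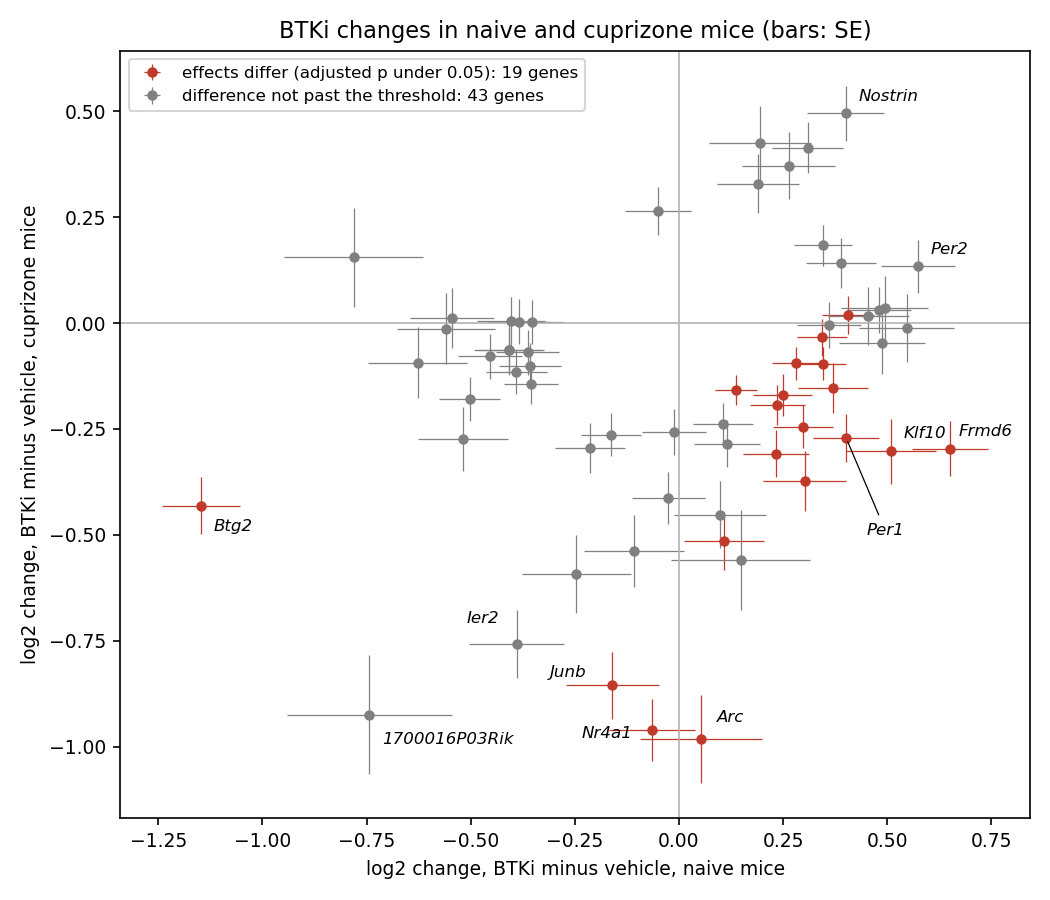
Log2 change under BTKi in naive mice (horizontal) against that in cuprizone mice (vertical), with bars of 1 SE, for the 62 genes called in naive mice, in cuprizone mice or for the difference. The 19 red genes, whose effects differed, lie mostly right of 0 and below 0, and Btg2 lies far to the left at -1.15 and -0.43.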

How the data were processed

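Per the labels' protocols, RNA was isolated with a Qiagen RNeasy Micro kit and libraries were made with the TruSeq stranded mRNA kit. The authors deposited one table of FPKM for 54446 gene identifiers in 24 libraries. Aligner, counter, genome build and annotation: not given in the sources used here. Symbols came from the gene name table (54409 matched), and 53229 identifiers had the same version in GENCODE M21. FPKM holds no counts, so no count model was used, and fragments per library were implied from the steps between low values of single-transcript genes (in naive vehicle 1, 90.5% whole within 0.1 fragment, 20% by chance).

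The test was limma 3.58.1 (R 4.3.3) on log2(FPKM + 0.5), for genes that averaged at least 0.5 FPKM across the 24 libraries, with all 4 groups in one model, without a replicate block, and Benjamini-Hochberg adjustment over 15216 genes at 0.05. Same-numbered naive libraries deviated together with correlations of 0.07, 0.09, 0.02 and -0.003, so numbers were not treated as pairs. Genes named are the 15 largest rises and falls among calls without overlap, the members of lists that lead, and others chosen after their values were seen. The comparison and the lists were chosen with earlier results of these data known. The fit was tested on simulated data. Figures used Python 3.11.15 and matplotlib 3.10.9.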

Additional observations from a re-analysis of the deposited data

Results flagged for a closer look

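The effect of BTKi differed between cuprizone and naive mice, by the test of the difference itself (limma, adjusted p under 0.05), for 19 genes. The difference is cuprizone minus naive on the log2 scale. For 8 genes called in naive mice it was -0.95 for Frmd6, -0.67 for Per1, -0.44 for Stk40, 0.72 for Btg2, -0.81 for Klf10, -0.38 for Tet3, -0.38 for Hivep3 and -0.39 for Sntb2. For activity-responsive and ERK-responsive genes it was -0.90 for Nr4a1, -1.03 for Arc, -0.70 for Junb, -0.54 for Plk3, -0.54 for Dusp6, -0.67 for Dusp5, -0.62 for Trib1, -0.43 for Midn and -0.42 for Nab2. For the chromatin reader Phf13 and for 1810055G02Rik it was -0.52 and -0.29.

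In some groups of 4, one library lay far from the other 3. Such gaps were seen in 14 of 178 groups examined (7.87%). The cut used flags about 1 in 20 groups of unrelated values. The genes examined were called or named in the text, some after their values were seen, and genes of a library are not independent. No excess over chance can therefore be read from this share. In naive vehicle 2, Prkcd was at 130.1 FPKM (others 16.1 to 25.3), Mag, a myelin glycoprotein, at 191 (129 to 133), Mbp at 2522 (1757 to 1876) and Sox10 at 35.7 (24.8 to 25.5), and the myelin list's score was 0.52 (0.02 to 0.06). In naive vehicle 3, Tagln was at 3.79 FPKM (3.04 to 3.11) and Dusp6 at 25.0 (22.9 in the others), and in naive vehicle 4 Btk was at 0.272. In naive BTKi 1, Dnajb1 was at 16.5 FPKM (18.6 to 18.9), Nr4a1 at 63.2 (56.0 to 57.0) and Stk40 at 13.2 (13.6 in the others), and the general neuron score was -0.072 (0.018 to 0.033). In naive BTKi 3, Fam214a was at 7.21 FPKM (8.23 to 8.29) and Homer1, a synaptic scaffold gene, at 58.8 (42.6 to 45.3).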

How the results depend on the processing

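The 33 naive calls became 21 with no filter on low values, 3 in the fit on the 8 naive libraries, 145 with limma's array weights (all 33 among them), and, in settings added after seeing the data, 7 without naive vehicle 2 in a naive-only fit and 13 without it after median ratio scaling. Other pseudocounts, a minimum of 2 FPKM, median ratio scaling, quantile normalization and no variance trend gave 29 to 39. Cuprizone calls were 16 with no filter. Leaving out 1 library at a time gave 7 to 41 naive, 14 to 34 cuprizone and 8 to 23 difference calls. No named gene changed direction under these settings, except Btk, which ran from -0.04999 (without naive BTKi 4) to 0.06876, and was -0.02 without naive vehicle 4. With the number as a replicate block, calls were 14 for naive mice (8 of the 33), 18 for cuprizone mice and 8 for the difference, but numbers did not pair the samples. Differences in top-10, mitochondrial and haemoglobin shares of FPKM, in percentage points, were 0.221, 0.107 and 0.00203, and with 1 library left out ran from -1.092 to 0.906, from -0.618 to 0.502 and from -0.000418 to 0.0048, below 0 without naive vehicle 2 or naive BTKi 1. Depth limits low genes such as Btk, with under 0.5 FPKM in each naive library.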
